A study of Mus musculus with 6 samples.

Results

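The long non-coding RNAs Meg3, Rian, Mirg, Malat1, Neat1, Miat and Snhg11 were examined in mouse cortical cultures exposed to terahertz radiation and in unexposed cultures. The members were taken by name, as every non-control probe of the array whose gene name equals 1 of these 7 names. This gave 6 genes of the 37074 gene names on the array, read by 18 of its 56605 non-control probes. Meg3 has 5 probes, Miat 4, Snhg11 3, and Rian, Mirg and Neat1 have 2 each. No probe carries the name Malat1, and Malat1 was not analysed here.

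The cultures came from the cortex of C57/B6 embryos at embryonic day 16 and were grown as primary cells in Neurobasal medium with B27 plus. The 3 irradiated cultures received 3.1 THz, a band between microwaves and infrared light, in a single 3 h session per day between 5 and 9 days in vitro (DIV). The 3 control cultures were not irradiated. RNA was taken at 12 DIV from both groups, and 0.2 µg of each was labelled with the dye Cy3 for its own 1-colour Agilent array. Samples carry the numbers 1 to 3 within a group and no separate dissections are named, so the p-values measure only how far these samples scatter, which may be technical.

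Long non-coding RNAs are transcribed and often spliced like messenger RNAs but are not translated into a known protein, and many stay in the nucleus. Meg3, Rian and Mirg are read in 1 direction from the maternally inherited copy of the imprinted Dlk1-Dio3 region, whose paternally inherited copy expresses Dlk1, Rtl1 and Dio3. Meg3 comes first along the strand, Rian carries small nucleolar RNAs, and Mirg hosts a large microRNA cluster with members studied in dendrites. Malat1 and Neat1 are neighbouring genes whose RNAs sit in nuclear bodies: Malat1 in speckles, the stores of splicing factors, and Neat1 as the scaffold of paraspeckles. Miat, also called Gomafu, sits in its own nuclear domain in neurons and binds splicing regulators, and Snhg11 is a spliced small nucleolar RNA host gene that is abundant in neurons. In the RefSeq tables for GRCm38.p6, 1 microRNA hairpin lies on the strand of Meg3 within the gene, 3 lie within Rian and 10 within Mirg, while Malat1, Neat1, Miat and Snhg11 hold none.

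Each probe is a 60-base DNA oligonucleotide that reads one stretch and one strand of an RNA, so probes of a gene can differ when its isoforms or fragments differ. Probe sequences are from the deposited array files and are given 5′ to 3′, and positions are on mouse build mm9. Transcript models of that build were not used, so exon, intron and untranslated region are not stated. Probes are numbered along the direction of transcription. The first set shows the 2 Meg3 probes whose groups did not overlap, the fourth at chr12:110806386-110806445 and the fifth at chr12:110809678-110809737, both on the forward strand.
Meg3 probe 4: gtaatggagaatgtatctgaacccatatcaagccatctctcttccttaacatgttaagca
Meg3 probe 5: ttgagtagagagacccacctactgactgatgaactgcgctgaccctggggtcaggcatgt
The second set shows the Rian, Mirg and Neat1 pairs, in which 1 probe of the gene passed an unadjusted p of 0.05 and the other did not. The second Rian probe lies at chr12:110899840-110899899, the first Mirg probe at chr12:110979653-110979712 and the second at chr12:110987569-110987628, all on the forward strand. The first Rian probe is mapped in pieces between 110865343 and 110872442 of chromosome 12, a span of 7100 bases for 60 bases of probe. The Neat1 probes lie on the reverse strand at chr19:5844378-5844437 and chr19:5844123-5844182.
Rian probe 1: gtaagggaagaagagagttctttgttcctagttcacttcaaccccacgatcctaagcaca
Rian probe 2: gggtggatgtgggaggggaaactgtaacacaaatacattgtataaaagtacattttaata
Mirg probe 1: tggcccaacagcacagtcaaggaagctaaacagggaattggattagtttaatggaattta
Mirg probe 2: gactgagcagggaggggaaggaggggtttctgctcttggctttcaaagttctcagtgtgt
Neat1 probe 1: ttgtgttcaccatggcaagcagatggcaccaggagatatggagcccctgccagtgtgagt
Neat1 probe 2: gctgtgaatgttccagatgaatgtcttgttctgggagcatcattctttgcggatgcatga
The third set shows Snhg11 on the forward strand of chromosome 2 and the brightest Miat probe on the reverse strand at chr5:112642308-112642367. The first and second Snhg11 probes, at chr2:158206508-158206567 and chr2:158206523-158206582, share the 45 bases given in capitals and are not independent readings. The third lies at chr2:158211822-158211881.
Snhg11 probe 1: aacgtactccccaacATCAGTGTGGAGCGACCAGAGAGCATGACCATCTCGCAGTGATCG
Snhg11 probe 2: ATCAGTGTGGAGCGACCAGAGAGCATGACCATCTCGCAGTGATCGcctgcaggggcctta
Snhg11 probe 3: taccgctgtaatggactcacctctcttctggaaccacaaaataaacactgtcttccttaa
Miat probe 4: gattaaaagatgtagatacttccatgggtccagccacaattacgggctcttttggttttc

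The arrays held 59305 non-control spots each, 63.3% to 73.5% of the probes were well above background, and no spot was saturated. The 75th percentile of processed signal per array was 1225, 1291 and 921 for the irradiated cultures 1 to 3, against 476, 687 and 1048 for controls 1 to 3. Levels below are log2 of the processed signal minus the log2 75th percentile of the same array, so 0 is a signal equal to that percentile and each unit is a factor of 2. A single slide and a single scan held all 6 arrays. Row 1 of the slide carried the controls and irradiated 1 and row 2 carried irradiated 2 and 3, so group and place on the slide overlap in part and place was not tested. Control 1 stood apart from the rest, at -148.3 on the first principal component (55.4% of the variance) with the others between 11.6 and 62.0, and values without it are given beside each gene. The number of arrays limits the precision of every value. In these bulk samples, fewer cells of a type and less RNA per cell cannot be told apart.

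Most members were brighter in the irradiated cultures, but none passed the test after adjustment. Of the 18 probes, 17 were bright enough to be tested, that is, called well above background by the scanner software on 3 or more arrays. The difference, irradiated minus control, was above 0 for 15 of the 17 and below 0 for the second Rian and the first Neat1 probe, and the median of the 17 was 1.097. Across all 40552 tested probes, 47.4% had a difference above 0 and the median difference was -0.02. In limma with Benjamini-Hochberg adjustment over those 40552 probes, 0% had an adjusted p under 0.05 and the smallest adjusted p was 0.539. At an unadjusted p under 0.05, 3544 of all tested probes were found, or 8.74% (4.65% higher and 4.09% lower in irradiated cultures), and among the members 11 of 17, all 11 higher. These 11 include the second Neat1 probe, which entered the test only through the irradiated arrays. The 3 irradiated arrays all lay above the 3 controls for 7 of the 17 member probes and all below for 0, against 6.63% and 7.44% of all tested probes. With control 1 left out, 9 of the 17 probes passed the unadjusted threshold, 8 of them higher, against 5.48% of all tested probes. The member count was 5 without irradiated 1, 7 without irradiated 2 and 5 without irradiated 3, against 2.99%, 3.13% and 9.13% of all tested probes. It was 12 without control 2 and 5 without control 3, against 10.3% and 15.2% of all tested probes. Split by brightness, 3 of the 6 probes that are the brightest of their gene passed the unadjusted threshold, with a median difference of 0.62, against 8.06% and -0.10 over the brightest probes of all genes. Of the 11 other member probes 8 passed, with a median of 1.41, against 9.97% and 0.15 over such probes of all genes, of which 64.9% had a difference above 0. Several of these probes read the same gene, so the member counts are not counts of independent RNAs.

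**Figure D1:**
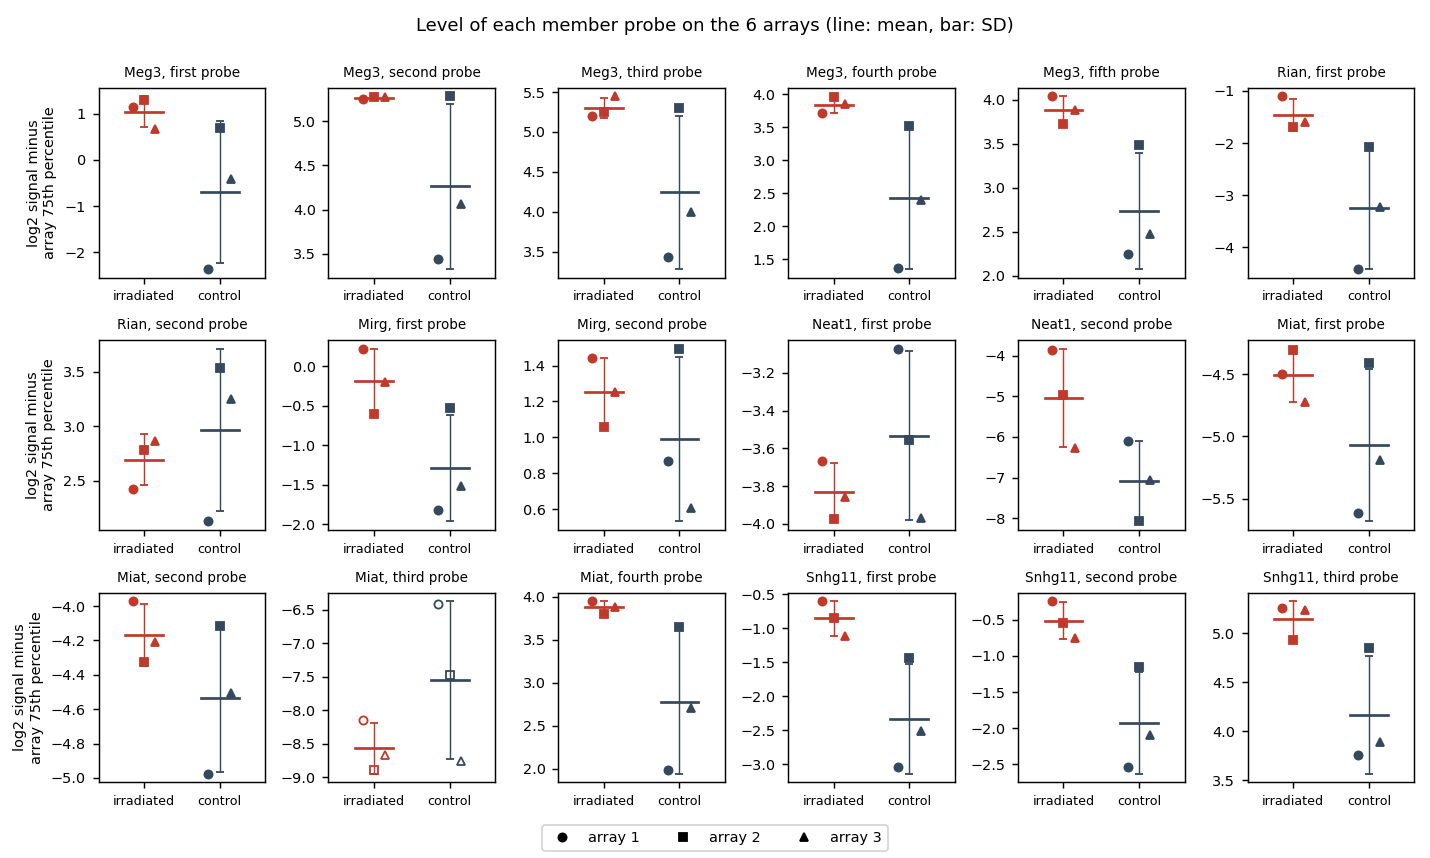
Level of each of the 18 member probes on each array, as log2 processed signal minus the array's 75th percentile (vertical axis, its own range in each panel), for irradiated cultures at the left and controls at the right. Circle, square and triangle are arrays 1, 2 and 3, horizontal lines are group means, bars are SD (n = 3), and open symbols mark a probe not well above background on any array. For the fourth Miat probe the irradiated arrays lie between 3.80 and 3.94, and the controls are spread between 1.98 and 3.65, with control 2 the highest.

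Meg3, the first RNA of the imprinted region, was read by 5 probes, all with a higher mean in irradiated cultures. The brightest, the third probe at chr12:110799833-110799892, had levels of 5.21, 5.25 and 5.45 on irradiated arrays 1 to 3, against 3.43, 5.30 and 3.999 on control arrays 1 to 3. Controls 1 and 3 were low, control 2 was as high as the irradiated arrays, and the groups overlapped. Its mean was 5.30 ± 0.13 in irradiated and 4.24 ± 0.96 in control cultures (SD, n = 3 each), a difference of 1.06 (95% interval 0.0032 to 2.11, limma unadjusted p = 0.0495, adjusted p = 0.539). The second probe gave nearly the same picture, with 5.25, 5.28 and 5.27 in irradiated cultures, against 3.45, 5.28 and 4.06 in controls. Its difference was 1.004 (95% interval -0.016 to 2.02, limma unadjusted p = 0.0529).

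Further along Meg3 the groups came apart. The fourth probe had levels of 3.72, 3.97 and 3.85 in irradiated cultures, against 1.37, 3.52 and 2.39 in controls, a difference of 1.42 (95% interval 0.26 to 2.58, limma unadjusted p = 0.0227). The fifth had 4.04, 3.73 and 3.88 in irradiated cultures, against 2.25, 3.49 and 2.47 in controls. In both, all 3 irradiated arrays lay above all 3 controls, with control 2 the nearest. The fifth probe differed by 1.15 ± 0.34 (SE), or 2.21-fold (95% interval 0.35 to 1.95 on the log2 scale, limma unadjusted p = 0.0113, adjusted p = 0.539). The first probe, at chr12:110782745-110782804, was the most scattered, with 1.15, 1.30 and 0.66 in irradiated cultures, against -2.36, 0.68 and -0.42 in controls, and a difference of 1.74 (limma unadjusted p = 0.0389). Its groups overlapped through control 2. Without control 1 the 5 Meg3 differences lay between 0.60 and 0.91.

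Rian, the host of small nucleolar RNAs, gave opposite signs from its 2 probes. The first had levels of -1.10, -1.70 and -1.59 in irradiated cultures, against -4.42, -2.08 and -3.22 in controls, and the irradiated arrays all lay above the controls. The difference was 1.78, or 3.43-fold (95% interval 0.50 to 3.06, limma unadjusted p = 0.0130, adjusted p = 0.539). The second and brighter probe had 2.42, 2.78 and 2.87 in irradiated cultures, against 2.13, 3.53 and 3.24 in controls. Here controls 2 and 3 were the highest arrays and control 1 the lowest, and the difference was -0.28 (95% interval -1.16 to 0.61, limma unadjusted p = 0.488, adjusted p = 0.819). Without control 1 the differences of the first and the second probe were 1.19 and -0.70. The test that the 2 probes differ was not made.

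Mirg, the host of the microRNA cluster, was read by 2 probes, of which 1 passed the unadjusted threshold. The first Mirg probe had levels of 0.22, -0.60 and -0.19 in irradiated cultures, against -1.82, -0.53 and -1.52 in controls. Controls 1 and 3 lay below every irradiated array, while control 2 lay above irradiated 2. The difference was 1.098 (95% interval 0.20 to 1.99, limma unadjusted p = 0.0226, adjusted p = 0.539). The second and brighter probe had 1.44, 1.06 and 1.25 in irradiated cultures, against 0.87, 1.49 and 0.60 in controls. Its highest array was control 2, and the difference was 0.26 (95% interval -0.39 to 0.92, limma unadjusted p = 0.375, adjusted p = 0.751). Without control 1 the differences were 0.83 for the first and 0.20 for the second probe.

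Between the first Meg3 probe and the last Mirg probe, a stretch of 204.9 kb, the array holds 30 probes, of which 21 carry other names. Of these 21, 18 were tested, 16 had a difference above 0 and 12 passed an unadjusted p under 0.05 in limma, against 8.74% of all tested probes. Their irradiated arrays all lay above the controls for 11 of the 18, against 6.63% of all tested probes, and their median difference was 0.84, with a range of -0.29 to 1.71. The array reads both strands here. Of the tested probes with other names, 15 lie on the forward strand, the strand of Meg3, Rian and Mirg, and 14 of these had a difference above 0. Of 3 on the reverse strand, 2 did, and 1 passed the unadjusted threshold. All were read on the same 6 arrays as the members, and which of them belong to the same transcripts was not determined.

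**Figure D2:**
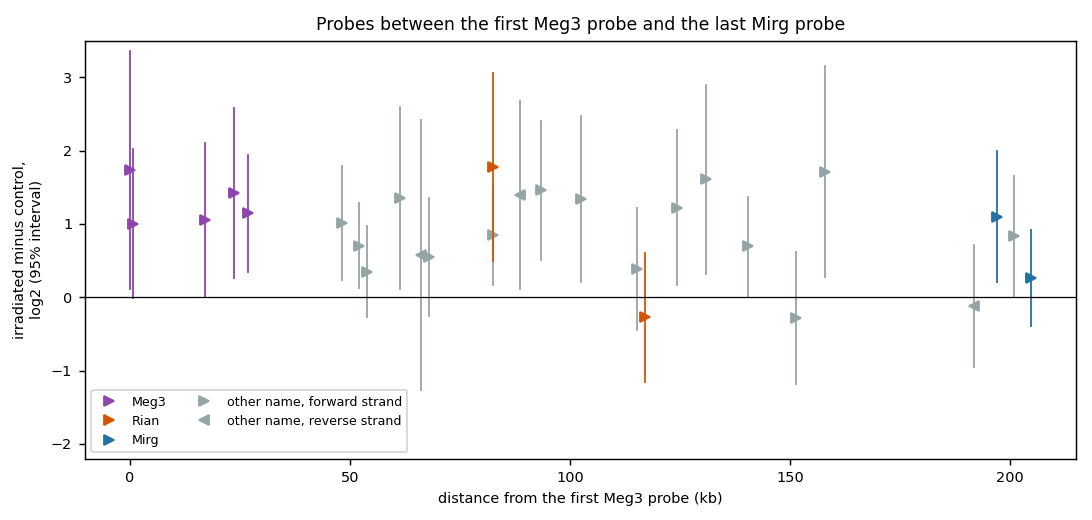
Difference irradiated minus control (log2, with 95% interval as vertical lines) of the 27 tested probes between the first Meg3 and the last Mirg probe, against distance from the first Meg3 probe in kb. Triangles point right for the forward strand and left for the reverse strand, and colours mark Meg3, Rian, Mirg and probes of other names. Of the 27, 24 lie above 0, and the second Rian probe, at -0.28, is 1 of the 3 below.

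The named genes on either side of these RNAs in the imprinted region did not pass the unadjusted threshold. Dlk1, a paternally expressed membrane ligand related to the Notch ligands, differed by -0.29, and Begain, a postsynaptic density protein gene at the proximal side, by -0.40. Dio3, a deiodinase that inactivates thyroid hormone, differed by 0.32, and Dio3os, the non-coding RNA opposite it, by -0.61 (limma unadjusted p = 0.0527), with irradiated arrays all below the controls. The 3 tested Dio3os probes ranged between -0.61 and 0.16. In all, 4 of the 7 listed genes were tested, 1 with a difference above 0 and 3 below, and the median was -0.34. Among genes represented by their brightest probe, 37.8% of 26120 had a difference above 0, 8.06% passed the unadjusted threshold (2.76% higher and 5.29% lower) and the median was -0.10. The irradiated arrays all lay above the controls for 4.41% of these genes and all below for 9.2%. Rtl1, a retrotransposon-derived gene on the reverse strand, has its probe between those of Meg3 and Rian. This probe did not reach the level called well above background on any of the 6 arrays and was not tested. No probe is named Snord113 or Snord114.

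Neat1, the paraspeckle scaffold, was read by 2 probes whose differences had opposite signs. The first and brighter probe had levels of -3.67, -3.97 and -3.86 in irradiated cultures, against -3.07, -3.56 and -3.97 in controls. The groups overlapped, control 1 was the highest array, and the difference was -0.30 (95% interval -0.94 to 0.34, limma unadjusted p = 0.304, adjusted p = 0.703). The second probe had -3.87, -4.96 and -6.28 in irradiated cultures, against -6.11, -8.08 and -7.05 in controls. It was well above background on 3 irradiated arrays and on 0 control arrays, so the control value is a bound. Its bound on each control array is the dimmest signal still well above background there, or the probe's own signal where that is brighter. Against this bound it was at least 1.87-fold higher in irradiated cultures with the main processing. The limma p (unadjusted 0.0193, adjusted 0.539) used the measured control signals, which are not well above background, and does not test the bound. The probe entered the test only through the irradiated arrays, so this p is no evidence of a difference. Irradiated 3 and control 1 overlap. Without control 1 the first probe differed by -0.07. With another background correction (normexp), the second probe differed by -0.033. A probe named NEAT1 in capitals, outside the member rule, was brighter than both of these. It differed by 0.69 with overlapping groups (limma unadjusted p = 0.233), and its levels are given under other observations.

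Miat, the neuronal nuclear RNA, was read by 4 probes, of which 3 were tested and all 3 had a difference above 0. The fourth and brightest probe, the furthest along the direction of transcription, had levels of 3.94, 3.80 and 3.88 in irradiated cultures, against 1.98, 3.65 and 2.70 in controls. All 3 irradiated arrays lay above all 3 controls, with control 2 close below. The mean was 3.88 ± 0.07 in irradiated and 2.78 ± 0.83 in control cultures (SD, n = 3 each). The difference was 1.097, or 2.14-fold (95% interval 0.16 to 2.03, limma unadjusted p = 0.0272, adjusted p = 0.539). The first and second probes, mapped in pieces and sharing 16 bases, differed by 0.56 and 0.36 (limma unadjusted p = 0.130 and 0.217, adjusted p = 0.564 and 0.634), with overlapping groups, and with normexp by -0.25 and -0.23. The third probe, well above background on 0 of the 6 arrays, was not tested. Without control 1 the fourth probe differed by 0.70.

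Snhg11, the neuronal small nucleolar RNA host, was the member whose 3 probes all separated the groups. The third and brightest probe had levels of 5.26, 4.93 and 5.23 in irradiated cultures, against 3.75, 4.85 and 3.89 in controls. Its mean was 5.14 ± 0.19 in irradiated and 4.16 ± 0.60 in control cultures (SD, n = 3 each), a difference of 0.98, or 1.97-fold (95% interval 0.22 to 1.73, limma unadjusted p = 0.0181, adjusted p = 0.539). Control 2 lay 0.08 below irradiated 2, and controls 1 and 3 lay well below. The second probe had -0.25, -0.54 and -0.76 in irradiated cultures, against -2.53, -1.16 and -2.09 in controls. It differed by 1.41 (95% interval 0.55 to 2.27), with the smallest unadjusted p of the members, 0.00567 in limma, and an adjusted p of 0.539. The first probe, overlapping it, had -0.60, -0.85 and -1.11 in irradiated cultures, against -3.03, -1.44 and -2.51 in controls, a difference of 1.47 (limma unadjusted p = 0.00749). Without control 1 the 3 differences lay between 0.77 and 1.12.

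**Figure D3:**
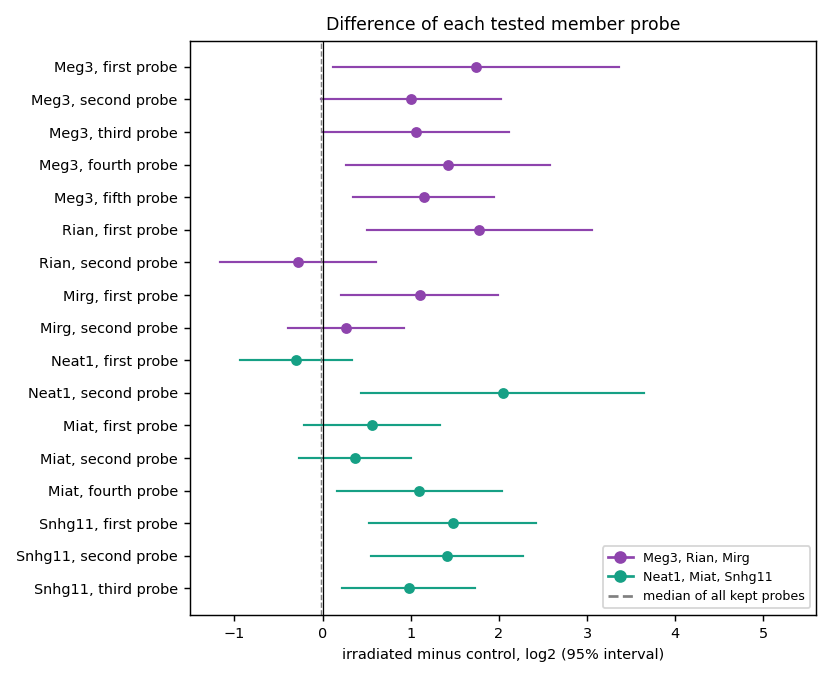
Difference irradiated minus control (log2, horizontal axis) of the 17 tested member probes, with 95% intervals from limma as bars, the imprinted genes Meg3, Rian and Mirg in purple and Neat1, Miat and Snhg11 in green. The dashed line is the median over all tested probes, -0.02. Points lie above 0 for 15 of the 17, and 6 of the 17 intervals span 0.

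The imprinted genes were set beside the others through the brightest probe of each gene, centred on its mean over the 6 arrays. Averaged over Meg3, Rian and Mirg, the centred level was 0.12, 0.12 and 0.28 on irradiated arrays 1 to 3, against -0.77, 0.53 and -0.29 on control arrays 1 to 3. Over Neat1, Miat and Snhg11 it was 0.41, 0.15 and 0.32 on irradiated arrays, against -0.54, 0.22 and -0.56 on controls. Both set means were low on controls 1 and 3, and on control 2 the imprinted set was the higher of the pair. Not every gene followed its set. The brightest Rian probe was higher on control 3 (3.24) than on any irradiated array, and the brighter Neat1 member probe was highest on control 1 (-3.07). The difference irradiated minus control was 0.35 for the imprinted set and 0.59 for the others, so they differed by -0.24. With the mean of all tested probes of each gene in place of the brightest, the differences were 0.90 and 0.94, the second of which includes the Neat1 probe whose control level is only a bound. Among the 9 imprinted probes, 6 passed the unadjusted threshold and 3 did not overlap, and among the 8 tested probes of the others, 5 passed it and 4 did not overlap. These 5 include the second Neat1 probe, which entered the test only through the irradiated arrays. Over all tested probes, 8.74% passed the unadjusted threshold and 14.1% did not overlap. These are descriptions of 3 genes on each side, with no test.

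The order of the arrays was shared by several members. Control 2 was the highest of the 3 controls for every tested probe of Meg3, Rian, Mirg, Miat and Snhg11, and for the Neat1 probes control 1 was the highest. The 75th percentile used for scaling was 476 on control 1, 687 on control 2 and 1048 on control 3, and its part in the order was not tested. Neuronal marker genes (Rbfox3, Map2, Tubb3, Syn1, Snap25, Stmn2, Slc17a7, Slc17a6, Gad1 and Gad2) were well above background on all 6 arrays, 10 of 10. By the brightest probe of each gene, their mean centred level was -0.26, -0.16 and 0.18 on irradiated arrays, against 0.05, 0.05 and 0.14 on controls. Single genes differed from this mean. On control 1, Map2, Snap25, Slc17a7 and Slc17a6 were at their lowest of the 6 arrays, and Tubb3, Syn1 and Gad2 were at their highest. The median difference of the 10 neuronal markers was -0.11, with 5 of 10 above 0 and 0 past the unadjusted threshold. Over all 25 tested probes of these genes the median difference was 0.14, with 17 above 0 and 1 past the unadjusted threshold. Other probes of the same markers reached differences of 1.79 for Snap25, 1.36 for Gad2 and 1.01 for Stmn2 and for Map2. At the low end, Tubb3 differed by -0.64, Syn1 by -0.53 and a probe of Gad1 by -0.50. By the brightest probes, the mean of each glial list was highest on the array numbered 1 in each group. Single genes differed: Pdgfra, Olig1, Itgam and Ptprc were lowest there in both groups. Mobp, of the oligodendrocyte list, was 1.32 and 1.29 there and -5.62 or lower on the other arrays, and was well above background on 2 arrays of each group. The microglial mean was 1.43, -0.35 and -0.79 on irradiated arrays, against 1.02, -0.34 and -0.97 on controls, and the oligodendrocyte lineage mean was 0.84, -0.78 and -0.22 on irradiated arrays, against 1.04, -0.74 and -0.15 on controls. The astrocyte mean was 0.68, -0.23 and -0.61 on irradiated arrays, against 0.89, -0.20 and -0.52 on controls. Of the other lists, 2 of 4 endothelial, 5 of 5 fibroblast and 7 of 8 progenitor markers were tested (all but Cldn5, Cdh5 and Eomes), with means between -0.54 and 0.43 on irradiated arrays, against -0.32 and 0.61 on controls, and none of them passed the unadjusted threshold. The part of these markers in the members' differences was not tested.

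**Figure D4:**
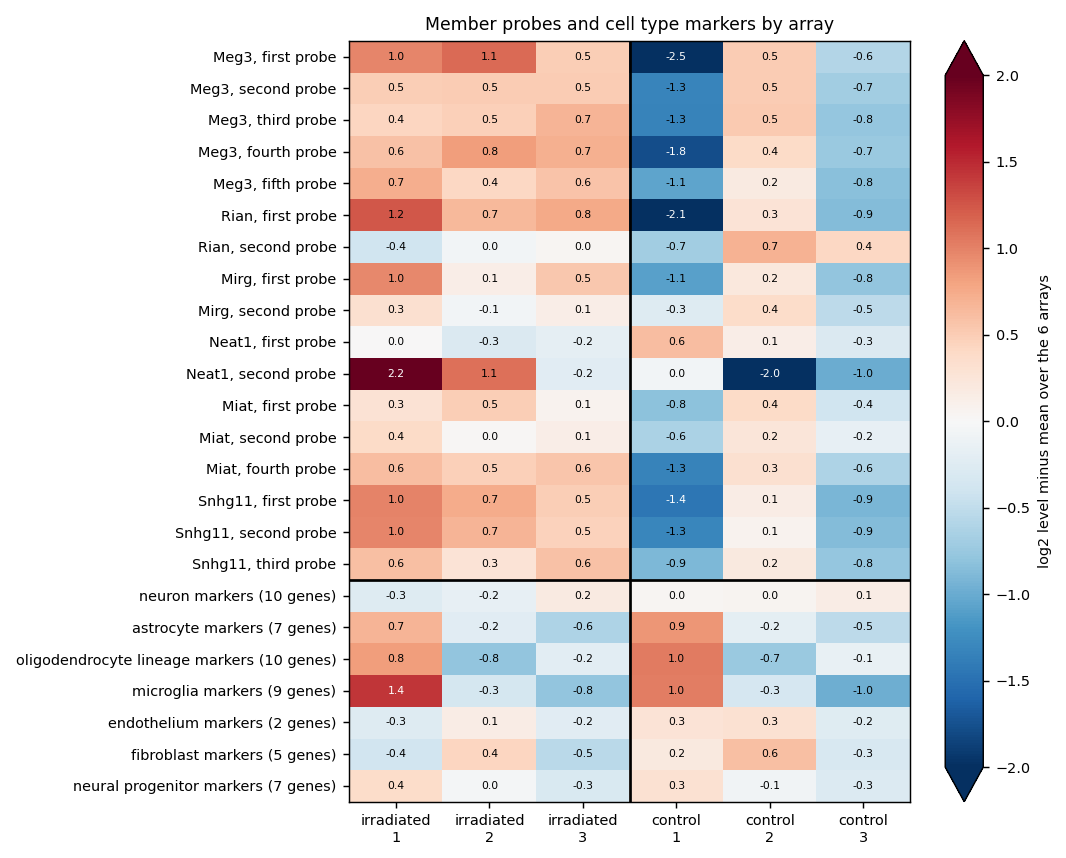
Heat map of the 17 tested member probes (upper block) and the mean of each cell type marker list by brightest probes (lower block) on the 6 arrays, irradiated at the left, as log2 level minus the mean over the arrays, with values printed in the cells. Controls 1 and 3 are blue for most member probes. The mean of the neuronal markers, by the brightest probe of each gene, lies between -0.26 and 0.18 on every array, and single markers differ from it.

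Other genes of the members' pathways were read first by the brightest probe of each gene, of which 8.06% over all genes passed the unadjusted threshold, and then by all tested probes, of which 8.74% did. None passed after adjustment. Of 15 paraspeckle protein genes, the partners of Neat1, 4 had a difference above 0 and 11 below, with a median of -0.09 and 1 past the unadjusted threshold. That was Dazap1, an RNA-binding protein gene, at -0.72 (limma adjusted p = 0.539). Next came Taf15, another RNA-binding protein gene, at -0.50, whose probes ranged between -0.50 and 0.43. Over all 43 tested probes of these genes, 29 lay above 0, with a median of 0.14 and up to 1.70 under a probe of Nono, and 4 passed, 3 of them higher. Of 20 nuclear speckle genes, 10 lay above 0 and 10 below with a median of 0.02, and none passed. Over their 56 tested probes, 35 lay above 0, with a median of 0.24 and up to 2.45 under a probe of Rbm25, and 7 passed, 6 of them higher. Clk1, a kinase of splicing factors, differed by 0.65 (limma adjusted p = 0.539), and Srpk2, another such kinase, by -0.35 (adjusted p = 0.581), with probes between -0.35 and 0.45. The 3 splicing regulators reported to bind Miat all lay below 0, with Sf1 at -0.28 (its probes between -0.28 and 0.67) and Celf3 at -0.14, and none passed, while of their 12 tested probes 2 passed lower. Of 15 other small nucleolar RNA host genes tested, 4 lay above 0 and 11 below, with a median of -0.10 and none past the threshold, and of their 19 tested probes 1 passed. Snhg9 differed by -0.52 and Snhg8 by -0.35.

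Of 30 other imprinted genes tested, 12 had a difference above 0, with a median of -0.04, and 2 passed the unadjusted threshold higher and 1 lower, against 2.76% and 5.29% of all genes. Over their 64 tested probes, 6 passed higher and 3 lower, against 4.65% and 4.09% of all tested probes. Ipw, transcribed without a protein product from the Prader-Willi region, differed by 1.43 (95% interval 0.57 to 2.28, limma unadjusted p = 0.00521), with irradiated arrays all above the controls. Peg10, a paternally expressed retrotransposon-derived gene, differed by -0.66 (limma unadjusted p = 0.0172, adjusted p = 0.539), with irradiated arrays all below. Of 18 other long non-coding RNAs of the brain, 10 lay above 0 with a median of 0.06, and 2 passed higher and 1 lower, against 2.76% and 5.29% of all genes. Over their 34 tested probes, 4 passed higher and 1 lower. Lncpint differed by 1.19 under its brightest probe (limma unadjusted p = 0.00184, adjusted p = 0.539), and its 2 probes ranged between 0.46 and 1.19. Mir124a-1hg, a host of the neuronal microRNA miR-124, differed by 1.38 (limma unadjusted p = 0.0109, adjusted p = 0.539). Over all 2209 probes that RefSeq lists as long non-coding, members included, 36.4% had a difference above 0, 3.85% passed the unadjusted threshold higher and 8.78% lower, and the median was -0.14. The members were not tested against this class.

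The genes whose levels ran most like each member over the 6 arrays were found by Pearson's r between brightest probes among 16301 named genes. For Meg3 these were Dnajc6 (0.997), Sectm1b (0.997) and Igf1os (0.996), and for Rian Osgep (0.994), Iqcc (0.992) and Adprh (0.991). For Mirg they were Tmem39a (0.981), Rfx2 (0.973) and Anxa9 (0.968), and for Miat Impg2 (0.997) and Slc25a23 (0.995). Snhg11 ran most like Mir100hg (0.995), Gnrh1 (0.987) and Firre (0.987), and Neat1, under its dim first probe, most like Enkd1, Lgals1 and Emid1 (0.998). With 6 points from 1 slide and so many genes searched, values this high are a description only.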

How the data were processed

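The deposited intensity of each spot came from the scanner software (per the submitters' processing notes, Agilent Feature Extraction 10.7.1.1). Per the file headers, these intensities are background-subtracted but not scaled between arrays. A table of log2 values was also deposited by the authors, with its tool not given in the sources used here. Processed signals of 59305 non-control spots per array were scaled to the array's 75th percentile and taken to log2, spots marked as outliers were left out, and spots of a probe were averaged. Of 56605 probes, 10 lacked an unmarked spot on an array. Probes well above background on at least 3 of 6 arrays were kept (40552). Irradiated and control arrays were compared by limma (version 3.58.1, R 4.3.3) through lmFit and eBayes, using all 6 arrays and no covariates, with Benjamini-Hochberg adjustment over all kept probes, and the procedure was tested on simulated data. The brightest kept probe stood for a gene. Probes were named through RefSeq (GRCm38.p6): 32989 by accession, 10228 by symbol and 519 by synonym, and 12869 kept the file's name. The brightest-probe genes number 26120. Alternatives were quantile normalisation, the deposited table, normexp on mean and background signals (offset 50), no filter, the replicate number as a block, leaving out each array or both arrays numbered 1, and the mean of all kept probes. Counts of the lists over all kept probes were added after seeing the data. The members and lists were chosen with earlier results of these data known. Named are the 7 members, the measured genes of the Dlk1-Dio3 list, the 2 genes with the smallest unadjusted p of each other list, and the 3 genes most like each member. 1 gene that this rule selects is not reported here.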

Additional observations from a re-analysis of the deposited data

How the results depend on the processing

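Over 13 other settings, 13 of the 17 tested member probes kept the sign of their difference. The exceptions were the second Neat1 probe (-0.033) and the first and second Miat probes (-0.25 and -0.23) with normexp, and the second Rian probe when 1 array was left out (between -0.70 without control 1 and 0.0056 without control 2). With the mean of all kept probes in place of the brightest, the difference was 0.75 for Rian and 0.87 for Neat1, against -0.28 and -0.30, and the Neat1 mean includes the second probe, whose control level is only a bound. With limma, quantile normalisation and the deposited log2 table each gave 4 probes past an adjusted p of 0.05, and the other settings gave 0. The count at an unadjusted p under 0.05 over all kept probes was 3544 (1886 higher, 1658 lower), 6698 with normexp (616 higher, 6082 lower, median difference -0.20), 5387 without the filter on dim probes, 1507 without both arrays numbered 1, and between 1212 and 6177 when 1 array was left out. It was 1646 higher and 2058 lower with quantile normalisation. Of the member probes, 6 passed it without both arrays numbered 1 (5 of them higher), against 3.72% of all kept probes. When 1 array was left out, between 5 and 12 passed, against 2.99% to 15.2%. Otherwise between 10 and 12 passed, against 8.64% to 16.5%, the highest share being with normexp. Without the filter the share was 9.52%, taken over all 56595 complete probes. The imprinted set minus the others was -0.24, and between -0.41 and -0.14 when 1 array was left out.

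Same-numbered arrays deviated from their group means with correlations of 0.46, 0.33 and 0.086 for the numbers 1, 2 and 3. All were above 0, so same-numbered cultures may share an origin, but the labels state no pairing. The main comparison did not treat the numbers as pairs, and the replicate block is the alternative that does. With the replicate block, limma gave 0 probes past the adjusted threshold and 3502 (8.64%) past the unadjusted one, 12 of them member probes. The imprinted set minus the others stayed at -0.24. Quantile normalisation with the block was chosen after seeing the data. It gave 0 probes past the adjusted threshold and 3594 (8.86%) past the unadjusted one, 11 of them member probes. The dim Neat1 probes and the first 3 Miat probes lie close to background, which limits what their values can show.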

Other observations

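Kcnq1ot1, a long non-coding RNA of another imprinted region, was read by 4 tested probes with differences between 0.68 and 0.96, irradiated minus control, and was chosen after its values were seen. Its brightest probe had levels of 3.38, 3.32 and 3.52 in irradiated cultures, against 1.56, 3.17 and 2.60 in controls (limma unadjusted p = 0.0432, adjusted p = 0.539), with control 2 again the highest control and below every irradiated array. Rmrp, the RNA of RNase MRP, was also chosen after its values were seen. It had -0.95, -0.87 and 0.68 in irradiated cultures, against 1.92, 0.82 and 0.33 in controls, a difference of -1.40 (limma unadjusted p = 0.0373).

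Probes near Neat1 under other names were outside the rule that chose the members. A probe named NEAT1 in capitals, on the reverse strand at chr19:5842654-5842713 in mm9, had 1.27, -0.27 and -0.66 in irradiated cultures, against 0.09, -0.88 and -0.94 in controls, a difference of 0.69 (limma unadjusted p = 0.233). A reverse-strand probe with no gene name, at chr19:5798256-5798315 and 46.12 kb from the first Neat1 probe, had 4.35, 4.10 and 3.48 in irradiated cultures, against 2.23, 3.35 and 3.55 in controls. Its difference was 0.93 (limma unadjusted p = 0.051), the groups overlapped through control 3, and it was not assigned to a gene.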
